A study of Rattus norvegicus with 10 samples.

Results

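Microglia are the resident macrophages of the brain, and 9 genes that mark them were followed in the supraoptic nucleus of Wistar Han rats: Cx3cr1, Tmem119, P2ry12, Csf1r, C1qa, C1qb, C1qc, Trem2 and Tyrobp. They were picked by gene symbol, for their known use as markers, and all 9 were found among the 32402 genes of the count table, each under a single Ensembl identifier. The study compared 5 samples from rats with free access to drinking water (euhydrated, the controls) with 5 samples from rats whose water had been removed for 72 h (dehydrated). Cages were allotted to the groups at random, both supraoptic nuclei were punched from 12 frozen slices with a 1 mm corer, and polyadenylated RNA was sequenced. No genotype or further agent was labelled in either group, and the labels used here gave no age. The labels do not say whether every sample came from its own animal or which samples shared a cage, and the tests take no account of cage. The p-values therefore reflect only how far these samples spread, and some of that spread may be technical.

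Microglia carry surface receptors with which they sense their surroundings. Cx3cr1 encodes the receptor for fractalkine, a chemokine made by neurons, P2ry12 a purine receptor that reads extracellular ADP, and Csf1r the receptor kinase for colony stimulating factor and interleukin 34, on which microglial survival depends. Trem2 encodes a receptor for lipids and lipoproteins that signals through the adaptor encoded by Tyrobp. Tmem119 encodes a membrane protein used to tell microglia from other macrophages, and C1qa, C1qb and C1qc encode the chains of C1q, the recognition molecule of the classical complement pathway. The supraoptic nucleus holds the magnocellular neurones that make vasopressin and oxytocin, and its glia are known to change shape when these neurones are active. Apart from Tmem119 and P2ry12, most of these genes are also used by other macrophages or blood monocytes.

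The C1q genes lie side by side on rat chromosome 5, in the order C1qb, C1qc, C1qa with 0 other genes between them in the RefSeq table of GRCr8. A RefSeq promoter was found for 5 of the 9 members. The 250 bases before the start site are shown for Trem2, the member with the largest difference between the groups, and for the neighbours C1qa and C1qb, which differed little. The capitals mark GAGGAA on either strand (TTCCTC where it lies on the other strand), the core of the motif of PU.1, the myeloid lineage factor encoded by Spi1. The windows are chr9:20151780-20152029 (minus strand) for Trem2, chr5:154407828-154408077 (minus strand) for C1qb and chr5:154419934-154420183 (minus strand) for C1qa, all in GRCr8; the build used for counting is not given in the sources used here.
Trem2: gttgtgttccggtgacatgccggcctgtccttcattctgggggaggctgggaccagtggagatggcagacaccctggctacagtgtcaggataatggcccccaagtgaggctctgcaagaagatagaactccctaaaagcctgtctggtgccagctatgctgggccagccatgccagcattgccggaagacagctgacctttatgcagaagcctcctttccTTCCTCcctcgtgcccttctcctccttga
C1qb: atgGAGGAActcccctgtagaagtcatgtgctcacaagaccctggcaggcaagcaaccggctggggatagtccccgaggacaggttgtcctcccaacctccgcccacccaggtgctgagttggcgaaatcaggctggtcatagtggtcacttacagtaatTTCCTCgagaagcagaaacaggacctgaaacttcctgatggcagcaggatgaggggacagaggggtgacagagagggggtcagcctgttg
C1qa: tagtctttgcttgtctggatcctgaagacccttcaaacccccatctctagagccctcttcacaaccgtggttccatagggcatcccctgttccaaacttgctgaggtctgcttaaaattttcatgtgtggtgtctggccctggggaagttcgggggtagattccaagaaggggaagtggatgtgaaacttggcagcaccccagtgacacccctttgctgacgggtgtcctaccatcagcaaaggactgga
The 6 letters occurred 1 time before Trem2, 2 times each before C1qb and Csf1r, and 0 times before C1qa and Cx3cr1. They occurred in 23.3% of the 33469 promoters of the same length. These matches describe the letters only.

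Counts assigned to genes summed to between 24268398 and 28491926 in each of the 10 libraries. Libraries are named by their group and the number of their column in the count table. Levels are given as CPM, the count over the library's total and scaled to a common size, with edgeR's TMM factors adjusting the totals, and fold changes are dehydrated over euhydrated. All 9 members were detected in every library, with the lowest raw count, 109, in Trem2, so the tissue held the RNA of microglia at a measurable level. CPM is not corrected for gene length, so levels are compared between libraries and not between genes. In such bulk tissue, fewer cells of a type and less RNA per cell cannot be told apart.

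Of the 9 members 0 passed the threshold in edgeR (Benjamini-Hochberg adjusted p under 0.05 over all 15311 genes tested). Of all genes tested 12.7% passed, 4.90% lower and 7.79% higher. Below an unadjusted p of 0.05, 5 of the 9 were lower (Trem2, P2ry12, Tyrobp, Csf1r and Cx3cr1) and 0 were higher. Among all genes tested 26.4% lay below that p, 12.3% lower and 14.1% higher. The groups overlapped for all 9 members, while 10.9% of all genes did not overlap, 3.97% lower and 6.90% higher. DESeq2 called 2 members, P2ry12 and Trem2, both lower, beside 15.4% of all its genes (6.32% lower). The limma-voom test called 0, beside 12.5% of all genes (4.85% lower). The authors' deposited table is also from DESeq2 on these counts, so it repeats that test and adds no separate evidence. In it P2ry12 and Trem2 had adjusted p by DESeq2 of 0.0393 and 0.0376, where 15.4% of all genes passed (6.32% lower). The members had a median log2 fold change of -0.10 and all genes tested one of -0.0058. Estimates below 0 were seen in 6 of 9 members and 51.8% of all genes.

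Other settings gave between 0 and 4 members past the threshold, each of them lower. With library totals in place of TMM factors these were Trem2, P2ry12, Csf1r and Tyrobp, where 13.6% of all genes passed (7.66% lower). With no filter on low counts it was Trem2 (8.14% of all genes, 3.06% lower). With the level of oligodendrocyte markers as a covariate they were Trem2 and Csf1r (11.1%, 4.16% lower), and the same 2 passed with the column number as a replicate block (12.8%, 5.20% lower). With the level of blood leukocyte markers as a covariate it was P2ry12 (6.65%, 1.89% lower), and with that of erythrocyte markers 0 passed (4.23%, 1.01% lower). Without euhydrated 5 Trem2 passed, and without dehydrated 1 Cx3cr1 and P2ry12 did.

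Trem2 had the largest difference. It stood at 5.999, 7.76, 7.29, 6.32 and 4.42 CPM in euhydrated 1 to 5, and at 4.73, 4.28, 5.58, 4.93 and 4.36 CPM in dehydrated 1 to 5. Euhydrated 5 lay among the dehydrated libraries, and the other 4 euhydrated libraries lay above all 5 of them. The means were 6.36 ± 1.30 and 4.78 ± 0.522 CPM (SD, n = 5 per group), a log2 fold change of -0.41 ± 0.14 (SE; 95% interval -0.70 to -0.12; adjusted p by edgeR = 0.0592). Over 20 alternative settings the adjusted p ran from 0.00827, when euhydrated 5 was left out (log2 fold change -0.52), to 0.355, with the level of blood leukocyte markers as a covariate (-0.33).

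Tyrobp, the adaptor of Trem2, was lower with a small spread. Its levels were 8.78, 9.98, 9.56, 10.5 and 9.20 CPM in euhydrated 1 to 5 and 8.70, 7.75, 8.83, 7.84 and 8.08 CPM in dehydrated 1 to 5. Only euhydrated 1 and dehydrated 3 kept the groups from separating, since dehydrated 3 stood just above euhydrated 1. The log2 fold change was -0.22 ± 0.08 (SE; 95% interval -0.38 to -0.06; adjusted p by edgeR = 0.0705; 0.0488 to 0.56 in other settings).

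The purine receptor gene P2ry12 was at 13.3, 12.2, 12.5, 11.3 and 11.9 CPM in euhydrated 1 to 5. In dehydrated 1 to 5 it was at 11.8, 10.5, 7.87, 10.3 and 10.1 CPM. Dehydrated 3 was the lowest, and dehydrated 1 alone reached into the euhydrated range. The log2 fold change was -0.28 ± 0.09 (SE; 95% interval -0.47 to -0.08; adjusted p by edgeR = 0.0607). Without dehydrated 1 it was -0.34 with an adjusted p of 0.0287, and the adjusted p ran from 0.00595 (blood leukocyte covariate, log2 fold change -0.51) to 0.254 (erythrocyte covariate) over the alternatives.

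Cx3cr1, the fractalkine receptor gene, stood at 22.4, 23.7, 23.8, 21.0 and 25.7 CPM in euhydrated 1 to 5 and at 22.9, 16.2, 18.1, 21.1 and 21.4 CPM in dehydrated 1 to 5. Dehydrated 2 and 3 were below every euhydrated library, and the other 3 dehydrated libraries overlapped with them. The log2 fold change was -0.23 ± 0.09 (SE; 95% interval -0.41 to -0.04; adjusted p by edgeR = 0.104). Among the 20 alternatives it passed only when dehydrated 1 was left out, with a log2 fold change of -0.28 (adjusted p by edgeR = 0.0446; up to 0.26 in other settings).

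Csf1r, the growth factor receptor gene, differed least among these receptors and was measured most tightly. It stood at 114, 119, 117, 107 and 109 CPM in euhydrated 1 to 5 and at 108, 107, 109.6, 103 and 100.2 CPM in dehydrated 1 to 5. Dehydrated 1, 2 and 3 lay inside the euhydrated range, and dehydrated 4 and 5 below it. The log2 fold change was -0.10 ± 0.04 (SE; 95% interval -0.18 to -0.02; adjusted p by edgeR = 0.0886; 0.0171 to 0.379 in other settings).

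Tmem119 showed no direction. It stood at 8.67, 6.44, 4.22, 5.63 and 7.17 CPM in euhydrated 1 to 5 and at 5.72, 6.54, 6.91, 9.78 and 5.68 CPM in dehydrated 1 to 5. Its lowest library was euhydrated 3 and its highest dehydrated 4. The log2 fold change of 0.10 ± 0.20 (SE; adjusted p by edgeR = 0.792) had a 95% interval of -0.32 to 0.53, which spans the differences seen in P2ry12, Cx3cr1, Tyrobp and Csf1r, so differences of that size could not be detected for this gene.

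**Figure D1:**
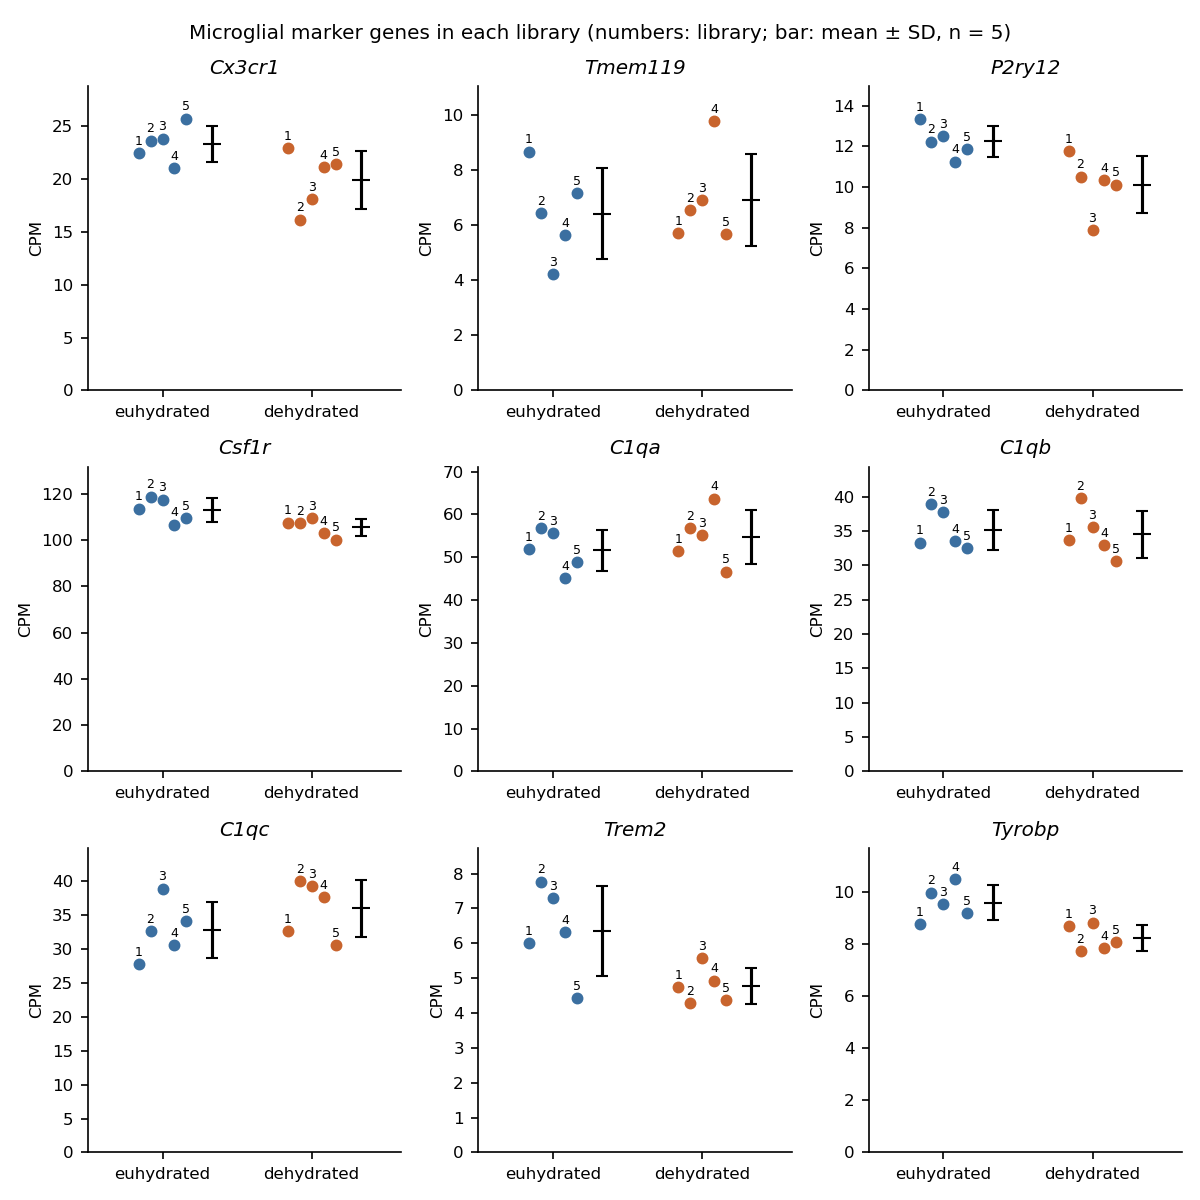
Level of each of the 9 microglial markers in CPM (vertical axes, from 0) in the 5 euhydrated (blue) and 5 dehydrated (orange) libraries; numbers name the library, and the bar gives the mean and SD. Trem2, P2ry12, Tyrobp, Cx3cr1 and Csf1r lie lower in the dehydrated libraries with some overlap, while C1qa, C1qb, C1qc and Tmem119 overlap broadly.

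The C1q genes overlapped throughout. C1qa stood at 51.9, 56.8, 55.5, 45.2 and 48.8 CPM in euhydrated 1 to 5 and at 51.4, 56.7, 55.2, 63.7 and 46.6 CPM in dehydrated 1 to 5. C1qb stood at 33.3, 38.9, 37.7, 33.5 and 32.5 CPM and at 33.7, 39.8, 35.6, 32.96 and 30.6 CPM, in the same order of libraries. C1qc stood at 27.7, 32.6, 38.9, 30.6 and 34.1 CPM and at 32.6, 39.98, 39.3, 37.6 and 30.6 CPM. In both groups the highest and lowest libraries differed more than the group means did. The log2 fold changes were 0.08 ± 0.08 for C1qa, -0.03 ± 0.07 for C1qb and 0.13 ± 0.10 for C1qc (SE; adjusted p by edgeR = 0.582, 0.852 and 0.421). Their 95% intervals were -0.10 to 0.26, -0.18 to 0.12 and -0.08 to 0.35. The interval of C1qb reaches below the estimate for Csf1r but not those for Cx3cr1, Tyrobp, P2ry12 and Trem2. Differences between members were not tested.

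Summed by role, the 5 receptor and adaptor genes (Cx3cr1, P2ry12, Csf1r, Trem2 and Tyrobp) gave 156 to 172 CPM with water and 144 to 156 CPM without, and the 3 C1q genes 109 to 132 and 108 to 136 CPM. Csf1r makes up most of the first sum. The ratio of the C1q sum to the receptor sum was 0.688, 0.745, 0.775, 0.701 and 0.718 in euhydrated 1 to 5, and 0.756, 0.936, 0.867, 0.913 and 0.748 in dehydrated 1 to 5. Dehydrated 2, 3 and 4 lay above all euhydrated libraries, and dehydrated 1 and 5 lay within their range. This grouping was made after the values were seen and was not tested. All 9 members together summed to 291 ± 15.96 CPM in the 5 euhydrated and 281 ± 13.7 CPM in the 5 dehydrated libraries (SD), with overlapping ranges.

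**Figure D2:**
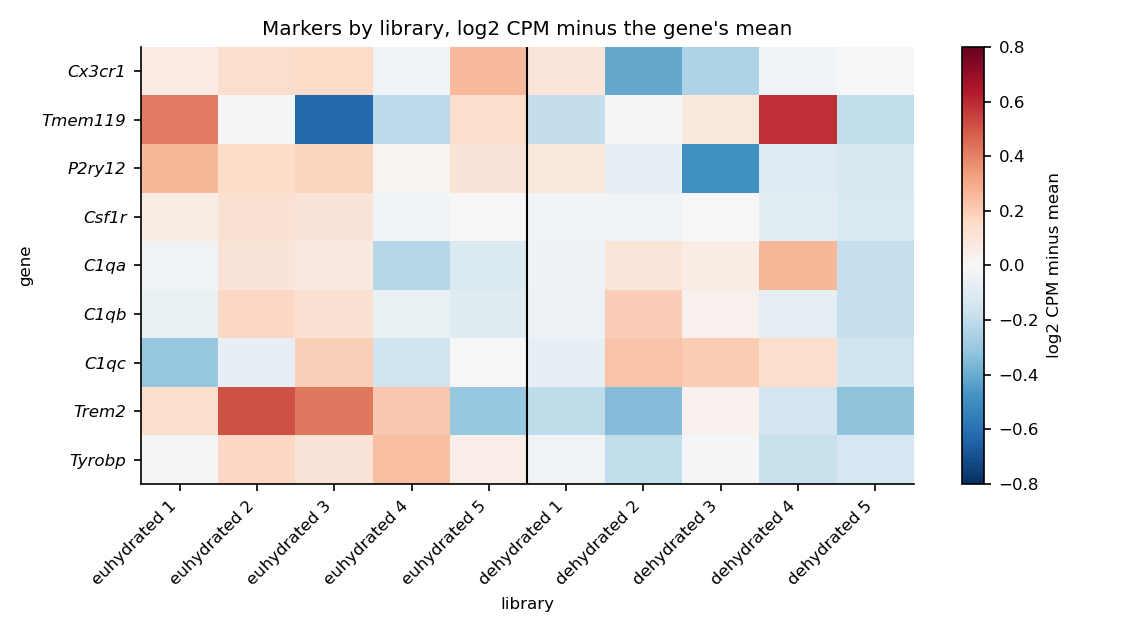
Log2 CPM of each marker (rows) in each library (columns) after subtracting the gene's mean over the 10 libraries; red is higher and blue lower, and the line parts euhydrated from dehydrated. Dehydrated 5 is near or below the mean for each of the 9 genes, and the C1q rows share a pattern that the Cx3cr1 and P2ry12 rows do not.

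The members did not move as 1 block between libraries. With each group's mean removed, the 36 pairs of members had Pearson correlations of log2 CPM from -0.55 (Cx3cr1 with C1qb) to 0.77 (Csf1r with C1qb) over the 10 libraries, with a median of 0.0055, and 6 pairs were above 0.5. The C1q genes went with each other (0.66 for C1qb and C1qc, 0.59 for C1qa and C1qc, 0.58 for C1qa and C1qb) and with Csf1r (0.46 to 0.77). Trem2 went with Csf1r (0.61) and Tyrobp (0.49), and Cx3cr1 went with P2ry12 (0.40). These are descriptions over 10 libraries, and within each library all genes share the same tissue punch and depth. The 5 genes most like the mean of the members, by the same centred correlation among 13087 genes with a mean of at least 2 CPM, were Aldoc (0.94), Parvb (0.92), Ly75 (0.92), Ephx2 (0.91) and Akap12 (0.91). None of them was on the microglial lists. They are the highest of 13087 values, so correlations of this size can arise from the picking alone, and the likeness was not tested. Aldoc encodes a glycolytic enzyme used as an astrocyte marker.

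A list of 40 other microglial and myeloid genes was read from the same fit, and 37 were tested. None rose, 2 fell and 35 did not pass, against 4.90% of all genes that fell. DESeq2 called 4 lower (Bin2, Gpr34, Irf8 and Itgb2), beside 6.32% of all its genes, and limma-voom the same 2 as edgeR. The median log2 fold change was -0.10, and 29 of 37 were below 0, beside 51.8% of all genes. At an unadjusted p under 0.05 10 were lower and 1 higher, beside 12.3% and 14.1% of all genes. Irf8, for a transcription factor needed for microglial identity, fell 1.31-fold, from 13.8, 14.3, 12.6, 12.6 and 12.3 CPM in euhydrated 1 to 5 to 10.8, 8.37, 9.24, 11.3 and 10.5 CPM in dehydrated 1 to 5 (adjusted p by edgeR = 0.00667; 0.000515 to 0.0224 in other settings). The groups did not overlap. Itgb2, for the beta chain of the complement receptor CR3 and other leukocyte integrins, fell 1.36-fold, from 11.9, 10.7, 12.0, 11.5 and 12.2 CPM to 8.45, 7.28, 11.7, 7.76 and 7.60 CPM (adjusted p by edgeR = 0.0161). Dehydrated 3 alone lay in the euhydrated range, and without it the log2 fold change was -0.58 in place of -0.44. The call of Itgb2 was lost with the erythrocyte covariate (adjusted p by edgeR = 0.176, at a log2 fold change of -0.43). It was also lost with the blood leukocyte covariate (0.337, at -0.21). With these covariates 4.23% and 6.65% of all genes passed, beside 12.7% without a covariate. Spi1 had a log2 fold change of -0.19 ± 0.11 (SE; adjusted p by edgeR = 0.313), Aif1, for the microglial protein Iba1, -0.18 ± 0.06 (0.0814), and Ctss, for cathepsin S, 0.15 ± 0.07 (0.179). These 3 were chosen for naming after their values were seen.

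**Figure D3:**
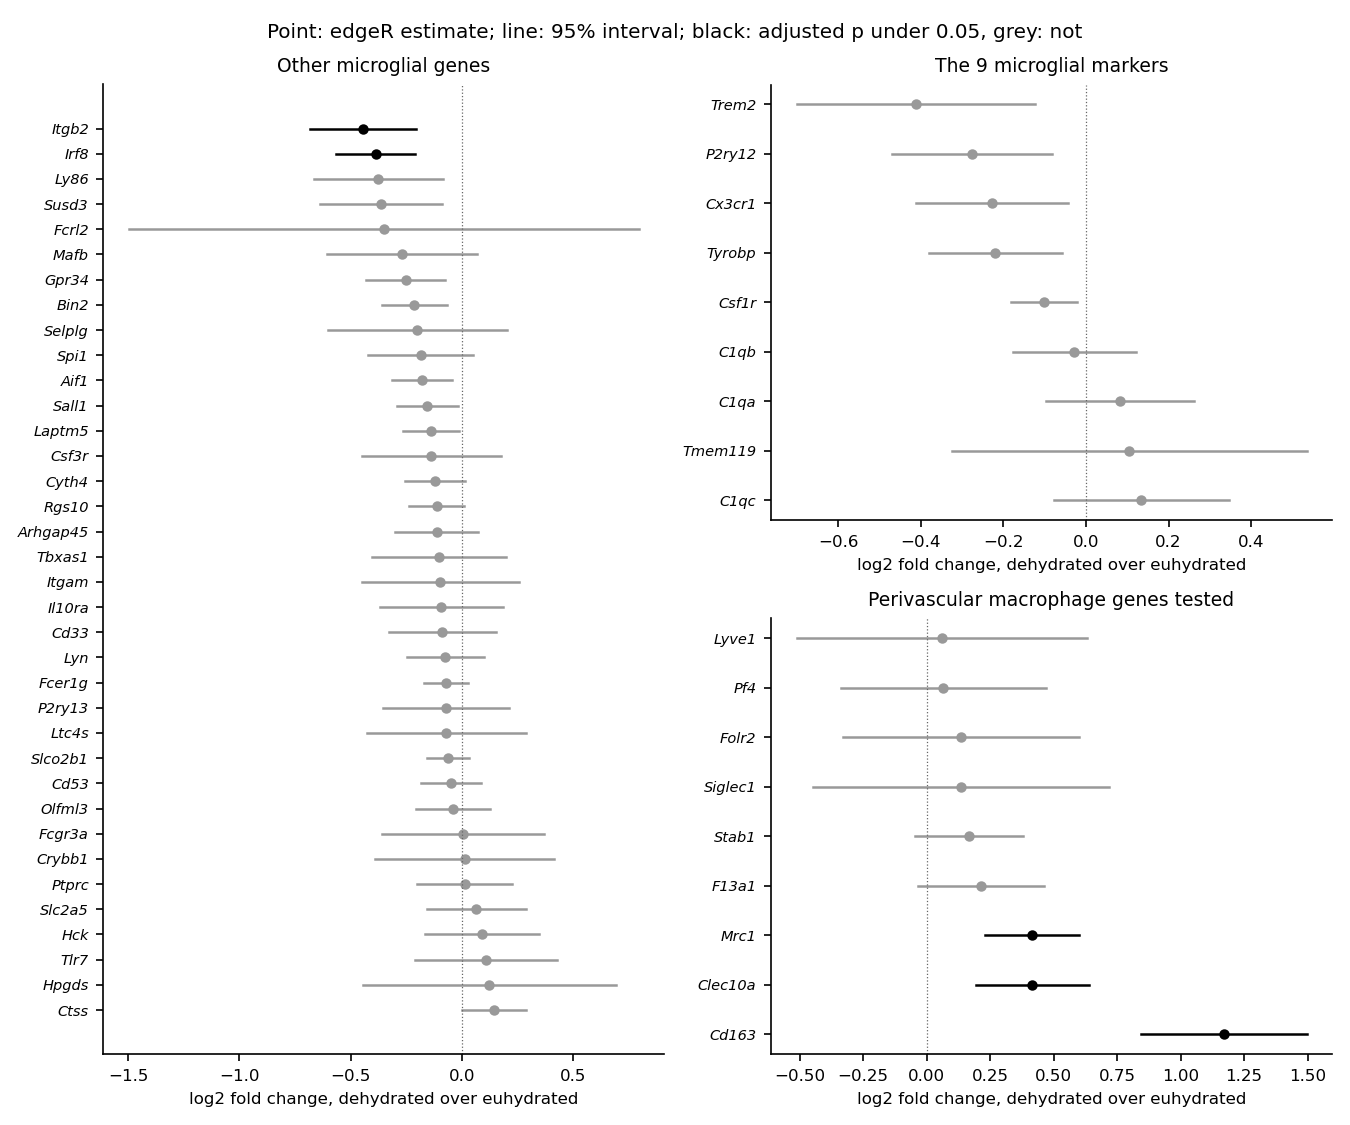
Log2 fold change, dehydrated over euhydrated (horizontal axes), with its 95% interval, for other microglial genes, the 9 markers and the 9 perivascular macrophage genes tested; black marks an edgeR adjusted p under 0.05. Most microglial estimates lie below 0 and 2 are black (Irf8 and Itgb2), and the 3 black macrophage genes (Cd163, Mrc1 and Clec10a) lie above 0.

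A list of 18 genes held ligands of these receptors and genes of the TGF-beta pathway that keeps microglia in their resting state. It also held Nt5e, Entpd1, Cd200, Cd47 and Sirpa, which belong to neither class. Of the 18 genes 2 rose, 0 fell and 16 did not pass in edgeR, where 7.79% of all genes rose. The limma-voom test called the same 2, and DESeq2 also called Sirpa, for an inhibitory receptor of myeloid cells and neurones, lower (log2 fold change -0.12 and adjusted p 0.0581 in edgeR). Nt5e, for the ecto-enzyme that turns AMP into adenosine, rose 1.42-fold from 8.61 ± 0.596 to 12.2 ± 1.15 CPM (n = 5, SD; adjusted p by edgeR = 0.00062), and every dehydrated library was above every euhydrated one. Tgfb1 rose 1.19-fold from 13.8 ± 0.764 to 16.5 ± 1.198 CPM, also without overlap (adjusted p by edgeR = 0.0174). With the erythrocyte covariate (0.217) or the blood leukocyte covariate (0.199) it no longer passed. Its log2 fold change was then 0.23 and 0.21, against 0.25 without a covariate. The ligand genes of the members, named here for that role, did not pass. Cx3cl1 (fractalkine) had a log2 fold change of -0.15 ± 0.07 (SE; adjusted p by edgeR = 0.192), Csf1 -0.08 ± 0.04 (0.293), Il34 -0.01 ± 0.06 (0.944) and Apoe, for a lipoprotein bound by Trem2, -0.04 ± 0.05 (0.648).

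Of 13 genes that carry the signal of Trem2 and Tyrobp or cut Trem2, 0 passed in edgeR, beside 12.7% of all genes. At an unadjusted p under 0.05, 4 were lower (Syk, Ptpn6, Pik3ap1 and Adam17) and 2 higher (Cbl and Lat2), beside 12.3% and 14.1% of all genes. Both DESeq2 and limma-voom called 0 of the 13, beside 15.4% and 12.5% of all genes. Adam10, for a protease that sheds Trem2, had a log2 fold change of -0.01 ± 0.04 (SE; adjusted p by edgeR = 0.896) and the adaptor gene Grb2 -0.01 ± 0.04 (0.915). Syk, for the kinase recruited by Tyrobp, had -0.22 ± 0.10 (0.162) and was named for that role.

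Of 27 other complement genes tested 5 rose, 3 fell and 19 did not pass, beside 12.7% of all genes. C1r and C1s, the proteases that ride on C1q, had log2 fold changes of 0.00014 and -0.06 (adjusted p by edgeR = 0.999 and 0.609), and C3 -0.36 ± 0.34 (SE; 0.563). Cd55, for a membrane protein that speeds the decay of complement convertases, rose 1.64-fold from 40.3 ± 2.81 to 66.2 ± 9.67 CPM with no overlap (n = 5, SD; adjusted p by edgeR = 0.000626). Susd4, for another complement inhibitor, fell 1.27-fold from 112 ± 7.03 to 88.5 ± 3.93 CPM with no overlap (adjusted p by edgeR = 9.58e-05). C7, for a component of the membrane attack complex, rose 1.282-fold (adjusted p by edgeR = 0.0308), and did not pass when any of euhydrated 1 to 4 or of dehydrated 1, 3 and 5 was left out (0.0552 to 0.0765), nor with no filter (0.0662) or with the erythrocyte (0.237) or oligodendrocyte (0.0547) covariate. With these covariates its log2 fold change was 0.35 and 0.39, against 0.36 without a covariate. Itgb2, which also belongs to this list, is given above, and Cd59, Cr1l, Sez6 and Sez6l2 also passed.

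Of 34 genes tested that are known to rise in activated or disease-associated microglia, 4 rose, 1 fell and 29 did not pass in edgeR, beside 7.79% of all genes higher and 4.90% lower. DESeq2 also called Ctsb and Lpl higher, and limma-voom made the same calls as edgeR. The 4 that rose were Cd63, Ctsl, Ctsz and Ctsd, which encode lysosomal and endosomal proteins that neurones and other glia also make. Cd63 rose 1.36-fold from 104 ± 2.29 to 141 ± 6.06 CPM and Ctsl 1.35-fold from 152 ± 5.28 to 206 ± 14 CPM, both with no overlap (n = 5, SD; adjusted p by edgeR = 6.89e-07 and 6.59e-06). Ctsd rose by 0.22 on the log2 scale with no overlap (adjusted p by edgeR = 0.000224). Ctsz rose 1.24-fold with overlap (log2 fold change 0.31, adjusted p by edgeR = 0.00467). With the erythrocyte covariate it was at 0.32 (adjusted p by edgeR = 0.0633), and with the blood leukocyte covariate at 0.21 (0.149). Igf1, for insulin-like growth factor 1, fell 1.45-fold from 6.07 ± 0.813 to 4.19 ± 0.592 CPM with no overlap (log2 fold change -0.54, adjusted p by edgeR = 0.00788). With the erythrocyte covariate it was at -0.49 (adjusted p by edgeR = 0.149), and with the blood leukocyte covariate at -0.53 (0.0931). Under the erythrocyte and blood leukocyte covariates 4.23% and 6.65% of all genes passed, beside 12.7% without a covariate. Of 22 inflammatory genes 16 were tested, and Il1a, Tnf, Il6, Il10, Ccl7 and Nos2 fell below the filter on low counts. Of the 16 tested 0 passed in edgeR, beside 12.7% of all genes. At an unadjusted p under 0.05, 1 was higher, beside 14.1% of all genes. It was Nfkbia, with a log2 fold change of 0.35 ± 0.15 (SE; adjusted p by edgeR = 0.176). DESeq2 called Nfkbia (adjusted p = 0.0477) and limma-voom called 0, beside 15.4% and 12.5% of all genes. Without dehydrated 3 the log2 fold change of Nfkbia was 0.18, and with the blood leukocyte covariate it was 0.61 (adjusted p by edgeR = 0.0246). The other gene of this list named by its level, Il1r1, a receptor for interleukin 1, had 0.12 ± 0.08 (0.369). Tnf was at 0 counts in every library, and Il1b was at 0.455 and 0.428 CPM in the euhydrated and dehydrated groups.

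Mki67, a proliferation marker of any dividing cell, was the 1 of 15 proliferation genes that edgeR and limma-voom called, beside 7.79% of all genes higher in edgeR, and DESeq2 called Rrm2 as well. At an unadjusted p under 0.05, 6 of the 15 were higher, the others being Cdk1, Ccna2, Bub1, Aurkb and Rrm2, beside 14.1% of all genes. Mki67 rose 1.34-fold from 3.14 ± 0.231 to 4.195 ± 0.565 CPM with no overlap (n = 5, SD; adjusted p by edgeR = 0.0281), and did not pass when any of euhydrated 1, 2 and 5 or of dehydrated 1, 2 and 3 was left out (0.0535 to 0.0731), nor with the oligodendrocyte (0.0787) or blood leukocyte (0.0676) covariate. With these covariates its log2 fold change was 0.38 and 0.51, against 0.42 without a covariate.

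Markers of perivascular macrophages, which sit along vessels and share Csf1r and other genes with microglia, were read from the same fit. Of 9 tested 3 rose, 0 fell and 6 did not pass, where 7.79% of all genes rose. All 9 estimates were above 0, where 51.8% of all genes were below 0. Ms4a7 and Cd209a were matched but fell below the filter on low counts. Their means were 0.420 and 0.0141 CPM with water and 0.316 and 0 CPM without. Cd163, for the haemoglobin scavenger receptor, rose 2.25-fold, from 3.40, 5.76, 4.88, 4.604 and 4.09 CPM in euhydrated 1 to 5 to 9.47, 12.2, 8.76, 12.6 and 8.20 CPM in dehydrated 1 to 5 (adjusted p by edgeR = 0.00019). Mrc1, for the mannose receptor, rose 1.33-fold from 21.8 ± 2.39 to 29.0 ± 3.23 CPM, and Clec10a, a lectin gene, 1.33-fold from 8.15 ± 1.19 to 10.9 ± 1.21 CPM (n = 5, SD; adjusted p by edgeR = 0.00605 and 0.0154). None of these 3 overlapped between the groups, where 6.90% of all genes were higher without overlap. Mrc1 and Clec10a lost their calls with the blood leukocyte covariate (adjusted p by edgeR = 0.148 and 0.16). Their log2 fold changes were then 0.29 and 0.37, against 0.41 and 0.42 without that covariate. Cd163 kept its call under all 20 alternatives. Lyve1, F13a1 and Stab1, named after their values were seen, had log2 fold changes of 0.06, 0.21 and 0.17 (adjusted p by edgeR = 0.919, 0.259 and 0.312). The summed level of the list ran from 65.9 to 86.7 CPM with water and from 85.8 to 111 CPM without.

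**Figure D4:**
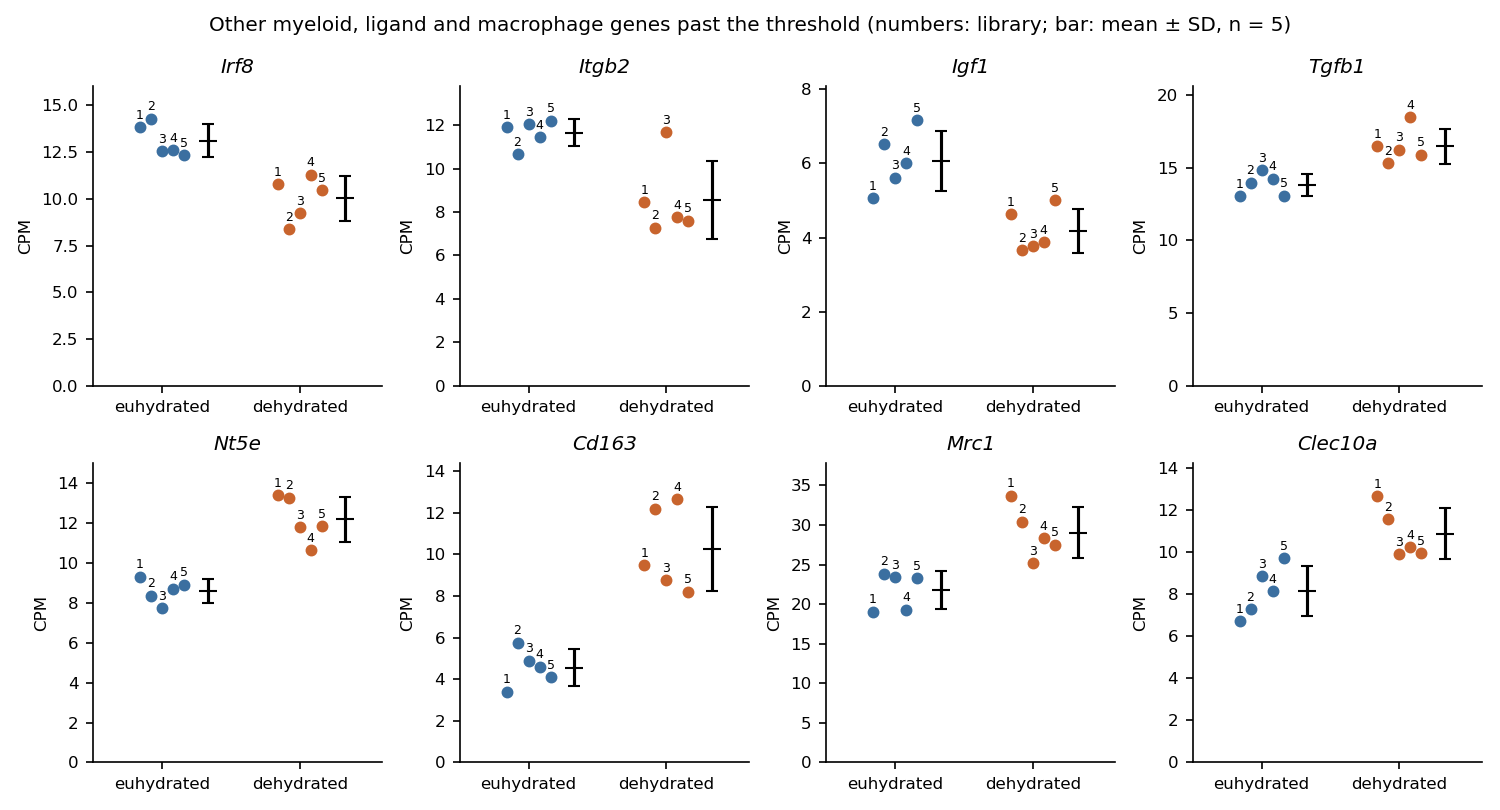
Level in CPM (vertical axes, from 0) of 8 related genes past the threshold in the 5 euhydrated (blue) and 5 dehydrated (orange) libraries, with library numbers and mean and SD. Irf8 and Igf1 are lower in every dehydrated library, Itgb2 in all but dehydrated 3, and Tgfb1, Nt5e, Cd163, Mrc1 and Clec10a are higher in every dehydrated library.

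Blood leukocytes and monocytes express several of the members, so markers of blood cells are given beside these results. Of 18 blood leukocyte genes 17 were matched and 6 tested. All 6 were below 0, beside 51.8% of all genes, and 0 passed the threshold in edgeR, where 4.90% of all genes fell. At an unadjusted p under 0.05, 1 was lower, beside 12.3% of all genes (S100a9, log2 fold change -0.97, adjusted p by edgeR = 0.0552). DESeq2 called S100a9 lower among the 3 it gave an adjusted p, and limma-voom called 0, where 6.32% and 4.85% of all genes were lower. Their summed level ran from 9.83 to 14.4 CPM with water and from 6.49 to 13.8 CPM without, and Gzmb was at 0 in every library. Plac8 and Itgal, the highest of the list, had log2 fold changes of -0.43 ± 0.25 and -0.24 ± 0.20 (SE; adjusted p by edgeR = 0.30 and 0.487). Without dehydrated 3 these were -0.76 and -0.47 (adjusted p by edgeR = 0.0201 and 0.072), and without euhydrated 4 -0.27 and -0.13 (0.558 and 0.751). Erythrocyte markers were also lower, at 1029 to 2059 and 591 to 1429 CPM, with 8 of 8 below 0, beside 51.8% of all genes. Only Slc4a1 passed the threshold, where 4.90% of all genes fell (log2 fold change -1.52, adjusted p by edgeR = 0.0291, lost under 9 of 19 alternatives). Among these is the erythrocyte covariate, into which Slc4a1 itself was averaged. With the leukocyte level as a covariate, Tyrobp went from a log2 fold change of -0.22 to -0.12 and Trem2 from -0.41 to -0.33, while P2ry12 went from -0.28 to -0.51 and Cx3cr1 from -0.23 to -0.33. With the erythrocyte level as a covariate, Trem2 was at -0.50, P2ry12 at -0.29, Cx3cr1 at -0.28, Tyrobp at -0.15 and Csf1r at -0.10. Both levels were lower in the dehydrated group, and their part in the results was not tested. Itgb2, Itgal and Plac8 were highest of the dehydrated group in dehydrated 3, and without that library Trem2 was at -0.47, P2ry12 at -0.20, Tyrobp at -0.25, Cx3cr1 at -0.19 and Csf1r at -0.12.

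Markers of other cells of the nucleus were counted too. In edgeR, where 7.79% of all genes rose and 4.90% fell, 1 of 12 astrocyte markers rose (Aldoc, log2 fold change 0.13, adjusted p by edgeR = 0.0438), 2 of 12 oligodendrocyte markers fell (Cnp -0.27 and Opalin -0.25; 0.0327 and 0.00105), and 1 of 9 endothelial markers tested rose (Slc2a1, 0.30; 0.000378). Leaving out a single library ended the call of Aldoc for 8 of the 10 libraries (all but euhydrated 2 and dehydrated 5), and that of Cnp for euhydrated 1, 4 and 5 and dehydrated 1, 3 and 5. Aldoc also did not pass with library totals (0.0788) or any of the 3 covariates (0.108 to 0.448), nor Cnp with no filter (0.0708) or with the erythrocyte (0.277) or blood leukocyte (0.11) covariate. Of 12 magnocellular genes 4 rose in edgeR, beside 7.79% of all genes: Creb3l1, Caprin2, Pdyn and Scg2, by 1.91, 1.81, 1.03 and 0.97 on the log2 scale (adjusted p by edgeR = 8.06e-06, 6.36e-06, 0.000261 and 0.000328). DESeq2 and limma-voom also called Avp, the vasopressin gene, higher, which in edgeR had a log2 fold change of 0.46 ± 0.15 (SE; adjusted p = 0.08). The astrocyte markers summed to between 7271 and 8540 CPM with water and between 7281 and 8605 CPM without.

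**Figure D5:**
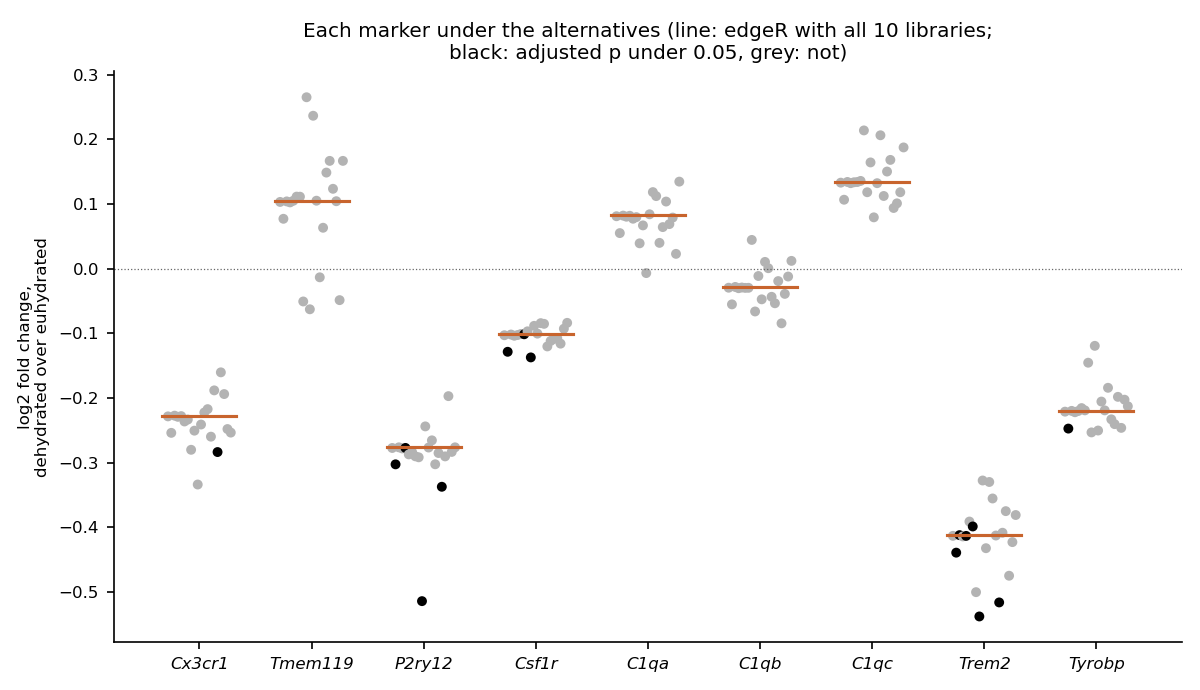
Log2 fold change of each marker, dehydrated over euhydrated (vertical axis), under the 20 alternative settings (points; black where the adjusted p is under 0.05) and in edgeR with all 10 libraries (line). Trem2, P2ry12, Cx3cr1, Tyrobp and Csf1r stay below 0 under each setting, and Tmem119, C1qa and C1qb cross 0.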

How the data were processed

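RNA of the supraoptic nucleus was sequenced in 5 euhydrated and 5 dehydrated samples from stranded mRNA libraries, per the labels' protocols. Unnormalised counts of reads per Ensembl gene were deposited. The authors' results table was deposited beside them and holds log2 fold changes, p-values, a test score and, as a signal, counts normalised by sample. The deposited normalised signal was the count over a size factor in 100.0% of values, within 1% or 0.1. The submitters' processing notes name CASAVA, FastQC, STAR, featureCounts and DESeq2 1.28.1. The counting is described without build, annotation or strand setting (not given in the sources used here), and reads of overlapping genes cannot be told apart.

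Columns were tied to samples by name. Euhydrated columns 3 to 5 were tied to the group only, since the labels number them in 2 ways. Within groups, pairs of libraries gave a chi-square of 5.05 to 12.7 per degree of freedom, above the noise of sampling, so none was a duplicate.

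Genes were filtered with filterByExpr, scaled by TMM and compared with edgeR 4.0.16 (glmQLFit, glmQLFTest, robust, no covariate) in R 4.3.3, with Benjamini-Hochberg adjustment over 15311 genes and a threshold of 0.05. The fit was tested on simulated data. The SE is the log2 fold change over the root of the F statistic, and intervals are at 95%. Log2 CPM used a prior count of 2. Each member's value in a library rested on 109 to 3369 reads, but the SE did not follow read number alone. Tyrobp, with 186 to 279 reads, had an SE of 0.076, and C1qc, with 764 to 1116 reads, one of 0.097. Alternatives were 2 other scalings, 2 other filters, DESeq2 1.42.0, limma-voom (limma 3.58.1), a replicate block, marker levels of 3 cell types as covariates (the blood leukocyte one was added after the data were seen) and each of the 10 libraries left out.

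The members and the 14 other gene lists (266 of 274 memberships matched, by symbol or RefSeq synonym) were chosen with earlier results of these data known. Unmatched genes were not analysed here. The text names all members, up to 4 genes per list that passed, by size of change (or the 2 of highest mean CPM if none did), and the 5 genes most like the members. Genes named beyond this rule were chosen for their known role or after their values were seen, C1r, C1s, C3, Tnf, Il1b and Gzmb among them. The counts over the lists include 1 gene that is not reported here and is left out of the plot of fold changes.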

Additional observations from a re-analysis of the deposited data

Results flagged for a closer look

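None of the 9 members had a library that stood apart within its group, by the gap to the nearest library over the group's range. Chance sets apart about 1 in 20 groups of 5 by this measure, and 88 groups of values were looked at over the members and the other named genes. In dehydrated 3 the leukocyte genes stood above the rest of the group. Itgb2 was at 11.7 CPM there against 7.28 to 8.45 CPM in the other 4 dehydrated libraries, Itgal at 5.25 against 2.57 to 3.04 CPM, and Plac8 at 3.07 against 1.21 to 1.52 CPM. Plac8 was also high in euhydrated 4, at 3.23 against 1.96 to 2.18 CPM. C7 was at 59.7 CPM in euhydrated 5 against 44.5 to 46.2 CPM in the other euhydrated libraries. Susd4 was at 95.6 CPM in dehydrated 5 against 86.5 to 87.3 CPM, and Ephx2 at 22.8 CPM in euhydrated 2 against 21.1 to 21.3 CPM.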

How the results depend on the processing

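The number of members called was 0 in edgeR with all libraries. It was 4 with library totals in place of TMM factors, 2 with DESeq2, 2 with oligodendrocyte markers as a covariate, 1 with blood leukocyte markers as a covariate, 1 with no filter on low counts, and 0 to 2 when single libraries were left out. Every member called was lower in dehydrated samples. Library totals shifted all genes (median log2 fold change -0.0058 with TMM and -0.033 without) and the split of 1192 higher and 750 lower genes to 904 and 1173. The median of the members stayed between -0.14 and -0.084 under the 20 alternatives, and their summed level was 0.965 of the euhydrated level with TMM and 0.947 with library totals. Genes called numbered 1942, 1494 to 1756 without single libraries, 647 with the erythrocyte and 1018 with the leukocyte covariate; the cause was not tested.

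Some differences changed sign, and not all were small: in edgeR with all libraries Plac8 was at -0.43 and Itgal at -0.24. With the erythrocyte covariate Tmem119 was at -0.051, C1qb at 0.045 and Itgal at 0.014. With the leukocyte covariate Tmem119 was at -0.063, C1qa at -0.0067, Grb2 at 0.041, Itgal at 0.27, Plac8 at 0.14 and Parvb at -0.032. Itgal and Plac8 are among the genes averaged into that covariate, so their own shift under it was built in. Adam10 was at 0.025 with the oligodendrocyte covariate, and Parvb at -0.016 with library totals. Without single libraries Tmem119 ran from -0.0485 to 0.237, C1qb from -0.0844 to 0.0122, Grb2 from -0.0314 to 0.00327, Adam10 from -0.0423 to 0.00747 and Parvb from -0.0203 to 0.0457.

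The column numbers gave no sign of pairing the libraries: same-numbered libraries correlated above 0.1 in 1 of 5 pairs (-0.068 to 0.14). Low correlations cannot exclude a pairing, and the labels number some euhydrated columns in differing ways. No label ties a number to a cage or day. With the column number as a replicate block 2 members were called, Csf1r and Trem2 (edgeR adjusted p = 0.0438 and 0.0457), and 1956 genes in all.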
